A study of Mus musculus with 4 samples.

Results

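The cyclin-dependent kinase inhibitors are the proteins that brake the cell division cycle, and 7 genes encode them in the mouse. The INK4 genes Cdkn2a, Cdkn2b, Cdkn2c and Cdkn2d encode proteins that bind CDK4 and CDK6 and keep the D cyclins from activating them. The CIP/KIP genes Cdkn1a, Cdkn1b and Cdkn1c encode p21, p27 and p57, which bind assembled complexes of a cyclin with CDK2 and other kinases. Cdkn2a also encodes p19ARF from a separate first exon, a protein that holds back Mdm2 and so protects p53. All 7 genes of the family were taken, whatever their counts, out of 34469 genes listed over the 4 tables, of which 31765 are listed for plaque and 29459 for ligation.

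The cells come from arteries of C57Bl/6 mice with and without a smooth muscle transgene for TRF2T188A, a form of a telomere-binding protein that lost its function and that brings on early senescence. After carotid ligation, arteries of wild type control mice and of SM22a-TRF2T188A mice of 4 to 5 months were taken at 28 days. Plaques came from Myh11-CreERt2/Confetti/ApoE-/- mice and from Myh11-CreERt2/Confetti/Sm22a-Trf2T188A/ApoE-/- mice that received tamoxifen at 6 weeks of age and then a high-fat diet for 14 weeks. Each genotype is 1 library in each experiment, and the number of mice in a library is not given in the sources used here.

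Several features of the models bear on what can be read. The mutant TRF2 is driven by a minimal Sm22a promoter, so it is made in smooth muscle. The Confetti reporter is switched on by tamoxifen through a Cre carried by males. Ligated carotids were used without their adventitia and only where the wall had remodelled, whereas plaque cells come from lesions of the carotids, aortic arch and root. The study kept clusters with Confetti markers from the plaques, while the ligation libraries also hold endothelial-like and myeloid-like cells. The 2 experiments therefore differ in injury, diet, Apoe genotype and choice of cells, and are described one beside the other.

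Depth differs between the libraries and sets how often a rare transcript is seen. The ApoE-/- plaque library has 1502 cells with a median of 22765.5 UMIs, and the Trf2T188A/ApoE-/- plaque library has 929 cells with 24377. The study's lower limit on genes per cell was less strict for Trf2T188A/ApoE-/- than for ApoE-/- plaques. The lowest gene counts are 1056 and 1531, so this filter cannot be told apart from genotype in the shares of plaque cells. The ligation control library has 4967 cells with a median of 8631 UMIs, and the ligation Trf2T188A library has 5392 with 11153. Levels are therefore given as UMIs per 10000 UMIs of all genes, and shares of cells are also given after each cell was thinned to 8000 UMIs in plaque and 5000 in ligation. The chemistry counts 3′ ends, so levels of different genes were compared without scaling by transcript length. Intervals are 95% and cover counting error only, and with 1 library in each group no difference between genotypes was tested against variation between mice.

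The genotype labels were checked where the counts allow it. Apoe was at 0.0454 and 0.0632 per 10000 in the plaque libraries, against 11.4 and 10.6 in the ligation libraries, which fits the ApoE-/- label. Terf2, the gene for TRF2, was at 0.183 in each plaque library, and at 0.179 in ligation control and 0.168 in ligation Trf2T188A. The 3′ ends of the transgene may not be captured as Terf2, so this checks nothing about the mutant. Contractile genes mark the cells as smooth muscle, with Acta2 at 105 and 99.3 per 10000 in plaque.

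Cells were grouped into states without use of the 7 genes. In plaque, 5 clusters had all 8 contractile markers above the other cells, and 3 of them are pooled as contractile-like, although none of those markers is among their 10 leading genes by fold. The other 2 have leading genes of their own and are kept apart as Igfbp2 Ptprz1 cells (4.99% of ApoE-/- and 5.49% of Trf2T188A/ApoE-/- cells) and Pln Sncg Notch3 cells (2.93% and 2.48%). Cluster 2 is led instead by genes such as Dpp10, Sparcl1 and Cdh6 and cluster 3 by genes such as Bmp3 and Rbp4, so genotypes are compared in clusters 0, 2 and 3 separately. The fibromyocyte-like cells are led by Slurp1, Cthrc1, Thbs1 and Fbln2, and the chondrocyte-like cells by Col2a1 and Ibsp. A complement and acute-phase group is led by Saa3, Cxcl5 and C3. Adventitial fibroblast-like cells number 21 in ApoE-/- and 1 in Trf2T188A/ApoE-/-, and a group led by Igfbp3 has 14 cells, all ApoE-/-. A reporter UMI was in 38.1% and 7.14% of these ApoE-/- cells. Both groups count among all plaque cells. In ligation the large groups are led by Sparcl1, by Igfbp2, and by Ecrg4, Lum and Gdf10. They are called Sparcl1 Rbp4, Igfbp2 Postn and Gdf10 Ecrg4 cells, although Rbp4 and Postn are not among the 10 leading genes. The 10 leading genes of Gdf10 Ecrg4 cells also include Col2a1 and Ibsp, which lead the plaque chondrocyte-like cells. A difference from the published states may come from these rebuilt names.

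Cdkn1b and Cdkn1a, of the CIP/KIP genes, were the most widely detected members in plaque. Cdkn1b, the gene for p27, was seen in 74.2% of ApoE-/- cells and in 66.4% of Trf2T188A/ApoE-/- cells. Among cells of at least 2000 genes its shares were 74.9% and 71.0%. Cdkn1a, the p53 target that encodes p21, was found in fewer cells, 53.2% and 52.9%, but at a higher level, 1.86 and 1.69 per 10000 against 0.694 and 0.685 for Cdkn1b. Cells with Cdkn1a thus held more of it on average, up to 153 UMIs in a single ApoE-/- cell. Cdkn1c, which encodes p57 and is expressed from the maternal allele, was detected in 46.7% and 39.7% of cells.

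Among the INK4 genes, the one for p19INK4d was the most widely detected in plaque. Cdkn2d was found in 46.1% of ApoE-/- cells and 45.2% of Trf2T188A/ApoE-/- cells. Cdkn2b, for p15, was in 23.6% and 24.4%, and Cdkn2c, for p18, in 22.6% and 23.4%. Cdkn2a was the rarest member in each library. In plaque it was in 49 cells of the ApoE-/- library (3.26%, 2.42 to 4.29) and in 56 of the Trf2T188A/ApoE-/- library (6.03%, 4.59 to 7.76), while its level was 0.0555 and 0.0540 per 10000. Its UMIs cannot be assigned to p16INK4a or p19ARF, because both transcripts end in the same exons 2 and 3.

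The same order at its ends, Cdkn1a as the most abundant and Cdkn2a as the rarest member, held after ligation. Cdkn1a was at 3.41 per 10000 in control and 3.2 in Trf2T188A, in 70.2% and 72.4% of cells. Cdkn2a was in 280 control cells (5.64%, 5.01 to 6.32) and 391 Trf2T188A cells (7.25%, 6.57 to 7.98), at 0.0945 and 0.113 per 10000. Cdkn2b and Cdkn2c were each in 19.9% of control cells, against 26.9% and 22.3% of the deeper Trf2T188A library. Such gaps follow depth in part. Thinned to 5000 UMIs, Cdkn2b was in 11.7% and 13.5% of cells. Cdkn2c was then in 12.5% of control and 10.4% of Trf2T188A cells and Cdkn1a in 60.3% and 56.9%, so their direction turned. It also turned for Cdkn1b, from 63.3% and 65.6% to 44.8% and 40.3%. For Cdkn1c it turned from 39.6% and 45.3% to 27.1% and 25.9%.

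Most cells held transcripts of more than 1 inhibitor. No member was seen in 4.66% of ApoE-/- and 8.83% of Trf2T188A/ApoE-/- plaque cells, nor in 5.21% of control and 3.93% of Trf2T188A ligation cells. At equal depth these shares were 18.6% and 19.2% in plaque and 10.7% and 13.1% in ligation, so no direction is read from them. The most common number of members per cell was 3 in each plaque library, with 29.8% and 26.8% of cells. At equal depth in plaque it was 1, with 38.1% and 37.4%. Cells with all 7 members were rare, 2 and 3 in plaque and 3 and 7 in ligation.

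Several inhibitors differed between cell states by more than between genotypes, and Cdkn2a did so most. The 3 pooled contractile-like clusters are the reference within each plaque library, at a median of 21249 UMIs in ApoE-/- and 23886 in Trf2T188A/ApoE-/-. They held 1 Cdkn2a UMI in 675 ApoE-/- cells (0.148% of cells) and 2 UMIs in 295 Trf2T188A/ApoE-/- cells (0.678%). In the fibromyocyte-like state, at medians of 35176 and 28858 UMIs, Cdkn2a was in 31 of 158 cells (19.6%, 13.7 to 26.7) and in 32 of 123 (26.0%, 18.5 to 34.7). Thinned to one depth these shares were 9.15% and 11.9%, while no thinned ApoE-/- contractile-like cell of 662 had a UMI. The difference between the states is thus far larger than their difference in depth.

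Put on the log2 scale, the ApoE-/- library had Cdkn2a 8.73 higher in fibromyocyte-like than contractile-like cells (6.23 to 14.04), and the Trf2T188A/ApoE-/- library 6.06 higher (4.15 to 9.13). These ratios rest on the 1 and 2 contractile-like UMIs, so their lower ends are the values to use. Of the cells with Cdkn2a, 63.3% in ApoE-/- and 57.1% in Trf2T188A/ApoE-/- were fibromyocyte-like, and a further 16.3% and 19.6% were chondrocyte-like. The transcript was concentrated in few cells, the top 5 holding 45.2% of all Cdkn2a UMIs in ApoE-/- and 31.5% in Trf2T188A/ApoE-/-.

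Cdkn2c was also high in fibromyocyte-like cells, though it was present in contractile-like cells too. Its level in fibromyocyte-like cells was 6.13-fold that of contractile-like cells in ApoE-/- and 4.84-fold in Trf2T188A/ApoE-/-. The complement and acute-phase cells, in which Cdkn2a had 7 and 15 UMIs, had 5.05-fold and 4.39-fold the contractile-like level of Cdkn2c. The chondrocyte-like cells, which had more Cdkn2a than these, had less Cdkn2c, 2.63-fold and 3.77-fold. Cdkn2b, next to Cdkn2a on chromosome 4, was less dependent on state. The ApoE-/- library gave a log2 ratio of 0.98 for fibromyocyte-like over contractile-like cells (0.66 to 1.29), and the Trf2T188A/ApoE-/- library 0.13 (-0.36 to 0.61).

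Cdkn1a had a different peak, in the chondrocyte-like cells. There it reached 6.73 per 10000 in ApoE-/- and 5.42 in Trf2T188A/ApoE-/-, and 90.1% and 92.1% of cells had a UMI. This was 10.2-fold and 6.88-fold the contractile-like level. Fibromyocyte-like cells were intermediate, at 2.75 and 1.63 per 10000. Immediate early genes, which respond to stress such as enzymatic digestion, were also high in chondrocyte-like cells, at a summed 216 and 232 per 10000 against 108 and 97.6 in contractile-like cells. Whether the Cdkn1a peak includes such a response was not tested.

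Cdkn1b and Cdkn1c ran the other way in fibromyocyte-like cells. Cdkn1c was at 0.156 per 10000 there against 0.545 in contractile-like cells of ApoE-/-, a log2 ratio of -1.80 (-2.12 to -1.50). A single cell held 43.3% of those fibromyocyte-like Cdkn1c UMIs, so most fibromyocyte-like cells were lower still. In Trf2T188A/ApoE-/- the ratio was -2.88. The ApoE-/- ratio depends on how states are drawn, and was smaller in size with coarser clusters, as given below. Cdkn1b was lower by a smaller margin, -0.49 and -0.44. Cdkn2d, the remaining INK4 gene, varied little with the fibromyocyte-like state, at 0.32 in ApoE-/- and -0.16 in Trf2T188A/ApoE-/-.

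**Figure D1:**
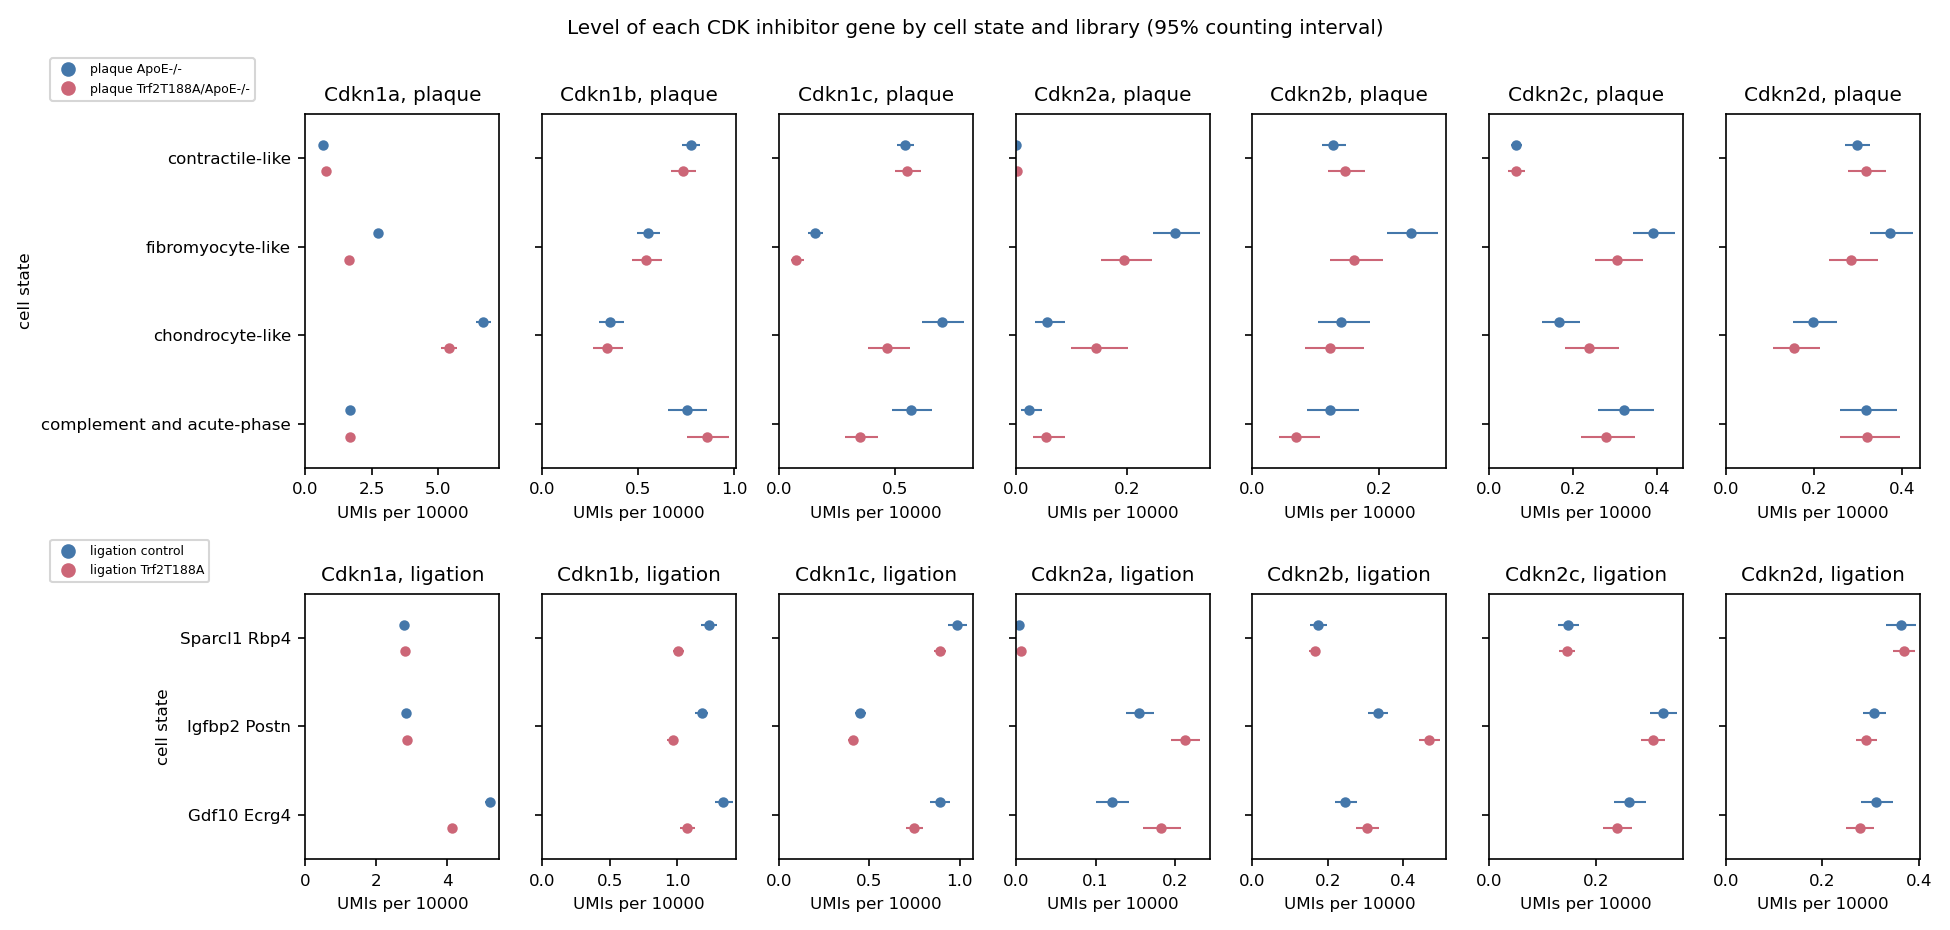
UMIs per 10000 of each gene (horizontal axis, 95% counting interval) by cell state (vertical axis) and library, plaque above and ligation below. Cdkn2a is near 0 in contractile-like and Sparcl1 Rbp4 cells, and Cdkn1a is highest in chondrocyte-like and Gdf10 Ecrg4 cells among the states drawn.

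After ligation Cdkn2a was nearly absent from 1 large state, the Sparcl1 Rbp4 cells. These had 6 Cdkn2a UMIs in 1529 control cells (0.327% of cells) and 17 in 2229 Trf2T188A cells (0.583%), at median depths of 8590 and 11423 UMIs. In Igfbp2 Postn cells, at medians of 8708.5 and 10915, 9.03% of control and 13.1% of Trf2T188A cells held Cdkn2a. In Gdf10 Ecrg4 cells it was in 7.30% and 11.6%, at 8461 and 10919. In thinned cells the shares were 0.212% and 0.184% in Sparcl1 Rbp4, 5.32% and 7.14% in Igfbp2 Postn and 4.51% and 6.2% in Gdf10 Ecrg4 cells. Over Sparcl1 Rbp4 cells, the log2 ratio of Cdkn2a in Igfbp2 Postn cells was 5.22 in control (4.08 to 6.68) and 5.12 in Trf2T188A (4.43 to 5.91). The control ratio depends on how states are drawn, at 1.52 with coarser clusters. Cdkn2a did not follow contractile transcripts between these states, since the summed contractile genes were at 394 and 406 per 10000 in Igfbp2 Postn cells against 342 and 361 in Sparcl1 Rbp4 cells. The endothelial-like cells, which are not smooth muscle, had 1 UMI in 62 control cells (1.61%) and none in 65 Trf2T188A cells, where 3 cells would be 4.62%.

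The remaining genes gave the other ligation states separate patterns. Cdkn1a was higher in Gdf10 Ecrg4 cells, 1.87-fold in control and 1.47-fold in Trf2T188A. Igfbp2 Postn cells were level with Sparcl1 Rbp4 cells (log2 ratio 0.02 in each library). With coarser clusters the control ratio of Igfbp2 Postn cells was negative, as given under the processing. Outside smooth muscle, the Trf2T188A library had 3.39-fold the Sparcl1 Rbp4 level of Cdkn1a in myeloid-like and 1.92-fold in endothelial-like cells. Both were above its Gdf10 Ecrg4 cells. In control, endothelial-like cells were at 1.16-fold, below Gdf10 Ecrg4 cells. Cdkn1c was lower in Igfbp2 Postn cells, by a log2 ratio of -1.14 in control (-1.26 to -1.01), and little different in Gdf10 Ecrg4 cells, at -0.15. In Igfbp2 Postn cells Cdkn2c had 2.20-fold the Sparcl1 Rbp4 level in control and 2.12-fold in Trf2T188A, and Cdkn2b had 1.92-fold and 2.85-fold. Cdkn1b was at a log2 ratio of -0.06 in each library, and Cdkn2d at -0.24 and -0.35.

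Cells were also ordered by their summed contractile genes, with no clusters. From the lowest to the highest of 4 classes, Cdkn1a in ApoE-/- plaque went from 3.85 to 0.621 per 10000 and Cdkn2a from 0.115 to 0.00116. Cdkn2c went from 0.277 to 0.0729. In ligation control the same ordering gave 4.77 to 2.15 for Cdkn1a and a shallow 0.131 to 0.0643 for Cdkn2a. The lowest class thus had more Cdkn1a and Cdkn2a than the highest in each of the 4 libraries, although Cdkn2a in ligation Trf2T188A was at 0.208, 0.0968, 0.0621 and 0.0835, lowest in the third class.

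Cells in division were counted by mitotic genes, because senescent cells are defined by their absence from the cycle. After thinning, 16 of 1410 ApoE-/- cells (1.13%) and 5 of 807 Trf2T188A/ApoE-/- cells (0.620%) had at least 3 of 12 mitotic genes. Each of them was fibromyocyte-like, the state with the most Cdkn2a. The 16 ApoE-/- cells had Cdkn2c at 1.33 per 10000 (0.774 to 2.13) against 0.283 in the other fibromyocyte-like cells, and Cdkn2d at 1.09 against 0.274. Cdkn2a was in 5 of those 16 cells and in 9 of the other 137. Stray Cdkn2a UMIs from other cells were not measured, so these counts do not show which dividing cells express it. After ligation 12 of 4642 control cells were dividing, 6 of them myeloid-like. In Trf2T188A 17 of 5238 were, 14 of them Igfbp2 Postn cells. Ligation cells were thinned to 5000 UMIs and plaque cells to 8000, so these shares are not compared between the experiments. The dividing cells again had much Cdkn2d, 2.17 and 2.0 per 10000 against 0.317 and 0.315.

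Whether inhibitors occur in the same cells was asked within classes of equal depth, because any pair of genes meets more often in deep cells. Without that step 19 of 21 pairs in plaque and 17 in ligation had an odds ratio over 1, and with it 10 and 11 did. Part of the apparent sharing therefore went with depth. The pair that stood out in each experiment was Cdkn2a with Cdkn2b, whose products act on the same kinases. In plaque 61 cells had both against 37.0 expected, an odds ratio of 3.08 (2.01 to 4.71). In ligation 332 cells had both against 193 expected, an odds ratio of 2.80 (2.38 to 3.30).

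The pair was tied within states too. Within fibromyocyte-like cells the odds ratio was 4.85 with 42 cells, within Igfbp2 Postn cells 2.34 with 242, and within Gdf10 Ecrg4 cells 1.70 with 79. Each library taken alone gave a value above 2, from 2.78 in ligation control to 3.43 in ApoE-/- plaque. Without the cells of highest doublet score it was 3.09 in plaque and 2.77 in ligation. Cdkn2a with Cdkn2c behaved otherwise. Its odds ratio of 2.07 in plaque became 0.983 when clusters were held fixed, so these genes share a state more than they share cells within it.

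Cdkn2a and Cdkn1c met less often than depth alone gives. The odds ratio was 0.382 in plaque (0.242 to 0.604; 30 cells with both against 50.2 expected) and 0.593 in ligation (0.501 to 0.702). With clusters held fixed it was weaker, 0.658 and 0.829. Inside fibromyocyte-like cells it was 0.395 with 10 cells and inside Igfbp2 Postn cells 0.709, but it was 1.13 in Gdf10 Ecrg4 cells, so it was not below 1 in every state. The usual marker pair of senescence, Cdkn1a with Cdkn2a, had no settled direction in plaque and was below 1 in ligation. It was 1.36 in plaque (0.849 to 2.17) and 0.813 in ligation (0.673 to 0.982). The ligation libraries differed, with 1.02 in control alone and 0.684 in Trf2T188A alone. Cdkn1a with Cdkn2b was at 0.713 in ligation, with 1714 cells against 1828 expected.

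**Figure D2:**
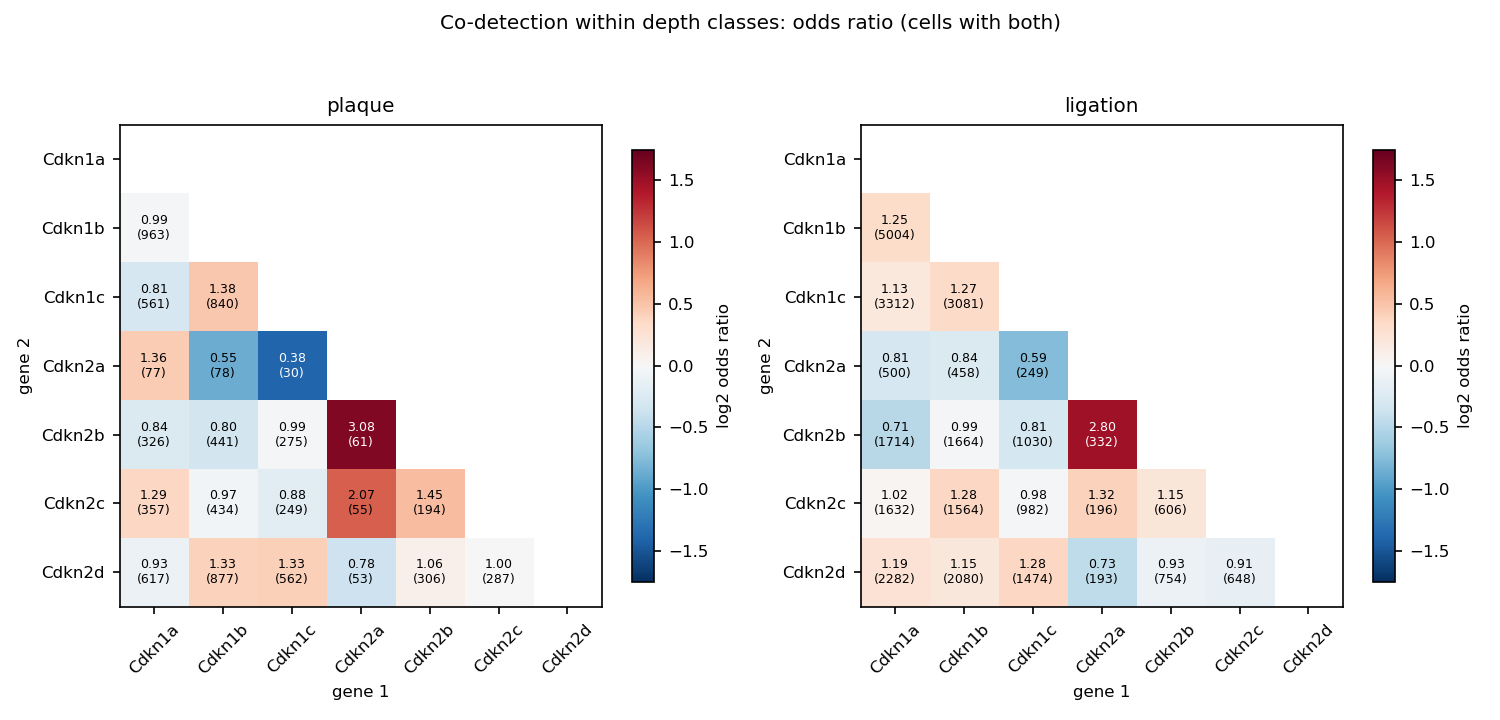
Odds ratio of detection in the same cell for each pair of genes (horizontal and vertical axes), within library and depth class, with the number of cells with both in brackets. Cdkn2a with Cdkn2b is highest in each experiment (3.08 and 2.80).

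Cdkn2a and Cdkn2b are neighbours, with 11646 bases between them on the minus strand of chromosome 4, and their promoters are shown because the genes are detected together. GC boxes (GGGCGG, in capitals, on either strand) bind Sp1-type factors at many promoters without a TATA box. The reference holds promoters of 6 of the 7 members, from RefSeq on GRCm38.p6, and 35.7% of all 32851 promoters there have the motif. The p19ARF promoter, chr4:89294570-89294869 on the minus strand, has 3 boxes, and the p16INK4a promoter, chr4:89282143-89282442 on the minus strand, has 1. The Cdkn2b promoter, chr4:89310983-89311282 on the minus strand, also has 1. GC boxes are present in other members too, with 1 in the Cdkn1b and 5 in the Cdkn2d promoter. Cdkn1a has 2 and 0 over its promoters, and Cdkn2c 4 and 0. Whether any of these boxes is used in these cells was not tested.

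Cdkn2a p19ARF promoter: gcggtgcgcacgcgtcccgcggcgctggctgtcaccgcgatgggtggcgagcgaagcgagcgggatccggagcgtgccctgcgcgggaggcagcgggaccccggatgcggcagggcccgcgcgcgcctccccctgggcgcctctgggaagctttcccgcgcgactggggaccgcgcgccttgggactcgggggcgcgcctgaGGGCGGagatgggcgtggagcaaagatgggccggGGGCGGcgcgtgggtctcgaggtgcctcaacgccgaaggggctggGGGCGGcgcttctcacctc

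Cdkn2a p16INK4a promoter: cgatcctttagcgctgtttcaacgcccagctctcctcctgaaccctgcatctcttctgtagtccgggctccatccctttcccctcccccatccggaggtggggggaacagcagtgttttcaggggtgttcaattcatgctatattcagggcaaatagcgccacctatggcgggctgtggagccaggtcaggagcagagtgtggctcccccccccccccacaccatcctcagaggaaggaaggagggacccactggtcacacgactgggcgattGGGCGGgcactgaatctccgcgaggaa

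Cdkn2b promoter: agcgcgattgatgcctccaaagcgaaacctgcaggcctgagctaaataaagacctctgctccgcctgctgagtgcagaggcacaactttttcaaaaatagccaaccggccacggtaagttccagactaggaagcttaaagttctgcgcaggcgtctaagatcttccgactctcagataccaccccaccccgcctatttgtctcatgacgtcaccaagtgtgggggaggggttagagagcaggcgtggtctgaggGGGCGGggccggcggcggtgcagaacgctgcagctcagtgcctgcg

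For each inhibitor the 3 genes whose levels ran most like it over clusters and libraries were named, as a description. In plaque they were picked from 11488 genes over 21 points. High correlations can arise from such a choice alone, so no link is read from the names. In plaque Cdkn1a ran with Sox9 (r 0.914), the transcription factor of cartilage, and with Phlda1 (0.910) and Errfi1 (0.895). Cdkn2a ran with P4ha3 (0.960), a collagen prolyl hydroxylase, then Kcnn4 (0.958) and Slurp1 (0.955). Cdkn2c had Tmem9b, Shisa5 and Ftl1 (0.940, 0.918 and 0.911). Weaker matches were found for Cdkn1c, with Smim5, Smim14 and Ogn (0.770, 0.721 and 0.718), and for Cdkn2b, with Eif4e2, Mrps18b and Sec13 (0.784, 0.776 and 0.766). Cdkn1b had Fam168a, Tbc1d2b and Tor1aip1 (0.909, 0.905 and 0.903), and Cdkn2d had Zpr1, CAAA01147332.1 and Sirt2 (0.854, 0.853 and 0.836). Between members, Cdkn2a and Cdkn2c were alike at 0.791, and Cdkn2a and Cdkn2b at 0.308.

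In ligation, with fewer clusters, 12181 genes were searched over 11 points and other genes came highest. Cdkn2b ran with Notch3 (0.981), Rnd3 (0.975) and Col5a1 (0.973). Cdkn1a had Tbc1d4, Anxa5 and Kctd12 (0.955, 0.942 and 0.942), and Cdkn2a had Vill, Shc2 and Rgs5 (0.925, 0.923 and 0.910). Cdkn1c ran with Kitl (0.945), the ligand of the Kit receptor, then Rcsd1 (0.941) and Eda (0.939). Cdkn1b had Kmt2a, Rere and Gm42729 (0.935, 0.922 and 0.911), Cdkn2c had Ankib1, Emsy and Gm37788 (0.948, 0.920 and 0.893), and Cdkn2d had Marchf9, Trip10 and Fsd1l (0.948, 0.945 and 0.943). Cdkn2a and Cdkn2b, neighbours in the genome, were alike at 0.754 here.

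Over all plaque cells the inhibitors differed little between the genotypes' libraries. A ratio was called when its size was over 0.25 on the log2 scale with at least 50 UMIs. Of the 7 genes 0 were higher and 1 was lower, beside 8.72% higher and 12.9% lower of 14685 genes tested, and their median was -0.13. The gene that fell was Cdkn1c, at -0.33 (-0.45 to -0.21). With states weighted alike it was at -0.19 and no gene was called lower, and contractile-like cells were 44.9% of the ApoE-/- and 31.8% of the Trf2T188A/ApoE-/- library. Cdkn1a was at -0.14 (-0.19 to -0.08), and Cdkn2b at -0.15 (-0.35 to 0.05). Neither direction was settled, since in thinned cells these genes were at 0.063 and 0.20. Cdkn2a had no settled direction either, at -0.04 (-0.36 to 0.28) by summed UMIs but 0.51 by the mean over cells. The cause of that gap was not tested.

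Within the fibromyocyte-like cells most of the family was lower in the Trf2T188A/ApoE-/- library by summed UMIs. Of 7 genes 6 fell and 0 rose, beside 22.4% lower and 14.1% higher of 10481 genes, with a median of -0.55 against -0.06 for all genes tested. Cdkn1a fell, at a log2 ratio of -0.75 (-0.89 to -0.62), although a single Trf2T188A/ApoE-/- cell held 22.7% of its UMIs there. Cdkn1c fell, at -1.06 (-1.72 to -0.44), or -0.59 without the cell with the most UMIs in each library. Cdkn2a was at -0.55 (-0.97 to -0.15) but at -0.045 by the mean over cells. Cdkn2b was at -0.64 (-1.10 to -0.21) but at -0.12 in thinned cells, so neither call held under every measure. Cdkn2c and Cdkn2d fell less, at -0.35 and -0.39, and Cdkn1b was unchanged at -0.02. The share of cells with Cdkn2a did not follow its level, as given above, so no order is read from it.

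In chondrocyte-like cells 2 of 7 genes were called higher and 3 lower, beside 23.3% and 23.0% of 8173 genes. Cdkn2a rose by 1.35 (0.50 to 2.24), with 41.2% of its Trf2T188A/ApoE-/- UMIs in 1 cell, and was at 1.05 without the top cell of each library. Cdkn2c was also higher, at 0.51 (-0.05 to 1.07). Cdkn1a fell, at -0.31 (-0.41 to -0.21), or -0.11 by the mean over cells, and Cdkn1c at -0.59 (-0.93 to -0.26), or -0.11 in thinned cells, while Cdkn2d, at -0.36 (-0.99 to 0.24), was at 0.33 by the mean over cells. The difference from the fibromyocyte-like cells was not tested.

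The contractile-like clusters did not share a genotype pattern. In cluster 0, 3 of 6 measured genes rose and 1 fell, beside 13.7% and 14.9% of 9769 genes, and Cdkn1a rose by 1.08 (0.80 to 1.37). In cluster 2, 2 of 6 rose and 1 fell, beside 14.5% and 20.2% of 9325, and Cdkn1c fell, at -0.54 (-0.91 to -0.18). In cluster 3, 2 of 5 rose and 2 fell, beside 15.9% and 19.1% of 8507, with Cdkn1a at 0.37 (0.02 to 0.71) and Cdkn1b at -0.39 (-0.71 to -0.07). These cluster 3 calls were not firm. Without the cell with the most Cdkn1a UMIs in each library Cdkn1a was at -0.22, and in thinned cells Cdkn1b was at -0.040 and Cdkn2d turned to -0.077 from 0.40. Of the 3 clusters, cluster 0 had the least Cdkn1a in ApoE-/-, 0.331 per 10000, and the largest rise. A smaller group led by Igfbp2 and Ptprz1 had a like rise of Cdkn1a, 1.08 (0.80 to 1.36). Cdkn1a was called lower in groups led by Adamtsl1 and Mdga2 (-0.68), by Flnc and Mpp7 (-0.47) and by Itih4 and Wnt16 (-0.31).

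Over all ligation cells the family as a whole did not stand out. Of 7 genes 1 was higher and 1 was lower, beside 12.8% and 12.9% of 15327 genes, with a median of -0.09. Cdkn2a was at 0.26 (0.09 to 0.43), just past the limit, and was within it by the mean over cells, in thinned cells and without cells of under 2000 genes. Cdkn1b was at -0.28 (-0.33 to -0.23), and at -0.23 in thinned cells. Cdkn2b was within the limit at 0.21 (0.11 to 0.31). Cdkn1a moved little, at -0.09 (-0.12 to -0.06), and Cdkn2d stayed within the limit too.

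Within the 3 large ligation states, genes were called higher in Igfbp2 Postn and Gdf10 Ecrg4 cells. In Igfbp2 Postn cells 2 of 7 genes rose and 1 fell, beside 15.1% and 16.3% of 12663 genes. Cdkn2b rose by 0.49 (0.35 to 0.64) and Cdkn2a by 0.46 (0.25 to 0.66). The share of these cells with Cdkn2b was 24.5% in control and 39.2% in Trf2T188A, or 14.2% and 20.1% at equal depth. In Gdf10 Ecrg4 cells 2 rose and 3 fell, beside 14.3% and 13.6% of 11852 genes, with Cdkn2a at 0.60 (0.29 to 0.91), Cdkn2b at 0.30 (0.08 to 0.53) and Cdkn1a at -0.33. The Sparcl1 Rbp4 cells had 0 of 6 measured genes higher and 1 lower, beside 10.6% and 13.7% of 12709 genes. Cdkn2a had too few UMIs to be called there, 6 and 17. The one gene called lower in each of these 3 states was Cdkn1b, at -0.29, -0.29 and -0.32, although in thinned Igfbp2 Postn cells it was at -0.20 and within the limit.

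**Figure D3:**
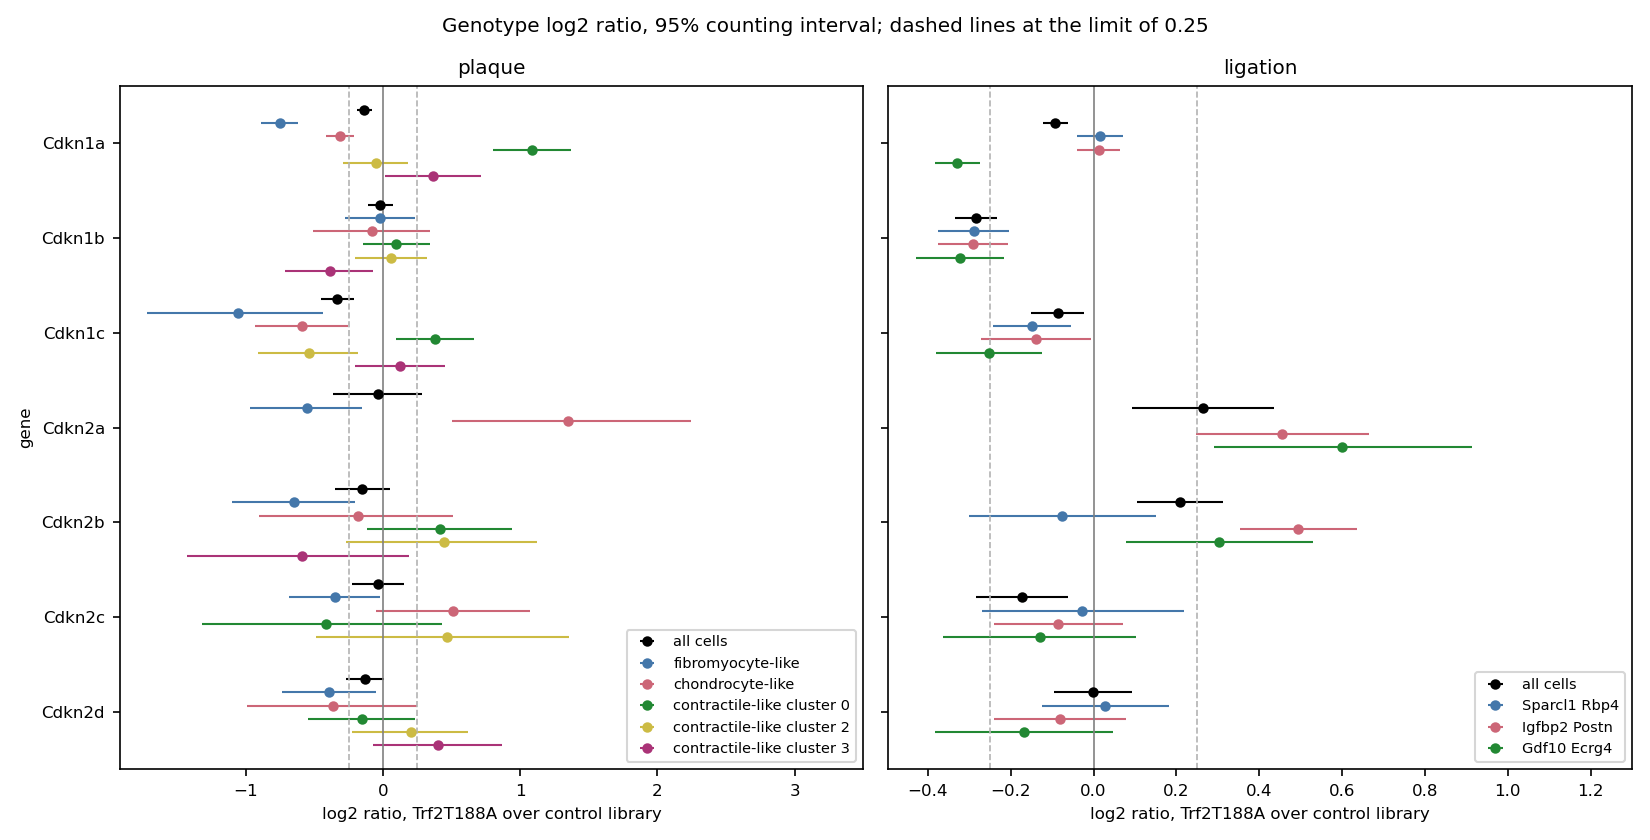
Log2 ratio of Trf2T188A over control (horizontal axis, 95% counting interval) for each gene (vertical axis), in all cells and in states or clusters, with dashed lines at 0.25. In fibromyocyte-like cells 6 of 7 genes are lower by summed UMIs, not all of them under other measures, and in Igfbp2 Postn and Gdf10 Ecrg4 cells Cdkn2a and Cdkn2b are higher.

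Over all cells, cycling genes were called lower in plaque and higher in ligation. Of 18 cycling genes, 13 fell and 0 rose over all plaque cells, where 12.9% of all genes tested were lower and 8.72% higher, with a median of -0.64 and Top2a at -2.55. In ligation 6 rose and 0 fell, where 12.8% of all genes were higher and 12.9% lower, with a median of 0.17 and Ccnb1 at 0.84. Of 7 CIP/KIP target kinases and cyclins, 4 fell in plaque (median -0.30; Cdk1 -1.73) and 4 rose in ligation (median 0.43; Ccnb1 0.84). That list shares genes with the cycling list, such as Ccnb1, and Cdk2 itself was within the limit in each experiment. Within Igfbp2 Postn cells, where Cdkn2a and Cdkn2b rose, 14 of 17 cycling genes rose as well and 1 fell, beside 15.1% and 16.3% of all genes there, with Birc5 at 2.17. Within fibromyocyte-like cells, where most inhibitors fell, 16 of 17 cycling genes fell and 0 rose, beside 22.4% and 14.1% of all genes there, with Top2a at -3.28. The median of the inhibitors was -0.55 in fibromyocyte-like cells and -0.08 in Igfbp2 Postn cells. Not all of the inhibitor falls in fibromyocyte-like cells held under other measures. Few cells were counted as dividing, as given above, and the cycling genes can share those same cells. Their calls are therefore not independent of one another, and no shift across a whole state is read from them. Whether inhibitors and cycling genes move together was not tested.

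For each list that follows, the shares over all genes tested in all cells are 8.72% higher and 12.9% lower in plaque and 12.8% and 12.9% in ligation. The first list is of the direct partners of the INK4 proteins. Of 5 such kinases and D cyclins 0 rose and 1 fell in plaque (median -0.04), and 0 rose and 1 fell in ligation (median -0.17). The gene that fell was Ccnd1, the cyclin through which growth signals reach CDK4, at -0.43 and -0.35, while Cdk4 was at 0.21 and 0.17. Of the pocket protein and E2F genes, 0 of 8 were called in plaque (median 0.03), where E2f1 was at -0.23. In ligation 1 of 10 rose and 1 fell (median -0.04), E2f2 at 0.44 and E2f7 at -0.35.

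Regulators known to act on the family were read next. Of 22 upstream regulators 1 rose and 1 fell in plaque (median 0.02): Ets1, an activator of Cdkn2a, was at 0.28, and Ezh2, of the Polycomb complex that silences the Cdkn2a locus, was at -0.46. In ligation 0 rose and 4 fell (median -0.09), with Kdm6b, which removes the Polycomb mark, at -0.40 and Foxo3 at -0.38. Mtap, the measured neighbour of the locus, was at -0.03 in plaque and -0.05 in ligation, within the limit in each.

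Cdkn1a was set beside other targets of p53. Of 19 such genes 0 rose and 5 fell in plaque (median -0.01), among them Plk2 at -0.60 and Trp53inp1 at -0.53. In ligation 4 of 20 rose and 0 fell (median -0.04), among them Pmaip1 at 0.95 and Eda2r at 0.50. Over all cells Cdkn1a was within the limit in each experiment. In fibromyocyte-like cells, where Cdkn1a fell, 9 of 19 targets were lower and 1 higher, beside 22.4% and 14.1% of all genes there. In chondrocyte-like cells 8 of 17 were lower and 2 higher, beside 23.0% and 23.3%. In contractile-like cluster 0, where Cdkn1a rose, 2 of 16 were higher and 3 lower, beside 13.7% and 14.9%.

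Cdkn1c is imprinted, and other imprinted genes were read with it. In plaque 0 of 12 rose and 5 fell (median -0.19), with Dlk1 at -4.15 and Mest at -1.82. Kcnq1ot1, the antisense transcript that silences the paternal copy of Cdkn1c, was at 0.03. In ligation 3 of 11 rose and 2 fell (median 0.05), Phlda2 at 0.67 and Kcnq1ot1 at -0.41. Beside the plaque ratio of Cdkn1c, some imprinted genes were thus lower, and Kcnq1ot1 was not.

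Other genes tied to senescence had medians near 0 over all cells. In plaque 4 of 10 rose and 1 fell (median 0.05), with Icam1 at 0.60 and Il6 at 0.47. Igfbp3 fell, at -8.63, from 624 UMIs to 1. A group of 14 cells led by that gene was found in the ApoE-/- library alone. In ligation 4 of 10 rose and 1 fell (median 0.03), with Ccl2 at 0.71 and Gdf15 at 0.53. The gene that fell there was also Igfbp3, at -1.78. Fibromyocyte-like cells had 0 of 9 higher and 5 lower, beside 14.1% and 22.4% of all genes, with Ccl2 at -1.90. Chondrocyte-like cells had 4 of 7 higher and 2 lower, beside 23.3% and 23.0%, with Ccl2 at 4.88. Igfbp2 Postn cells had 5 of 9 higher and 0 lower, beside 15.1% and 16.3%, with Ccl2 at 1.57. Gdf10 Ecrg4 cells had 3 of 9 higher and 0 lower, beside 14.3% and 13.6%. Sparcl1 Rbp4 cells had 2 of 8 higher and 0 lower, beside 10.6% and 13.7%, with Ccl2 at 1.20. No difference between states was tested. Immediate early genes had 2 of 16 higher and 1 lower in each experiment (medians 0.16 and -0.10), with Hspa1b at 0.43 in plaque and Fosb at -0.35 in ligation.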

How the data were processed

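The deposited tables give the signal as the authors normalised it: UMIs of a gene per 10000 UMIs of its cell, on a linear scale. Divided by the smallest step of its cell, 100% of values lay less than 0.01 from a whole number, so UMI counts were recovered and used. The submitters' processing notes name Cell Ranger 6.1.2, Seurat 3.2.1 and R 3.6.2 for ligation, Cell Ranger 7.0.0, Seurat 4.3.0 and R 4.2.2 for plaque, and GRCm38.

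All deposited cells were kept, after the study's own filters, which differed between the 2 plaque genotypes. Each table held 0 columns of other samples, and no batch labels are given. The ligation libraries share 10 barcodes and the plaque libraries share 0, while pairs across the experiments share 1, 1, 1 and 2. Clusters were made with Seurat 5.3.0 and R 4.3.3 from 2000 variable genes without the 7 genes, on 18 components at resolution 0.9 in plaque and 17 at 0.2 in ligation. The contractile-like clusters were split for the genotype ratios after the data had been seen, because cluster 2 has more markers of other lists than contractile markers among its 10 leading genes.

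A genotype ratio is the ratio of summed UMIs per summed total, with an exact binomial interval. Co-detection is a Mantel-Haenszel odds ratio over library and 10 classes of depth. Likeness is the correlation of log2 levels over clusters and libraries with at least 30 cells, among genes with at least 200 UMIs. Dividing cells were those with at least 3 of 12 mitotic genes after thinning, which left out 92, 122, 325 and 154 cells (plaque ApoE-/-, plaque Trf2T188A/ApoE-/-, ligation control, ligation Trf2T188A).

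Scrublet, from scanpy 1.11.5, called 0.0201% of ligation control, 0% of ligation Trf2T188A, 0% of plaque ApoE-/- and 0.323% of plaque Trf2T188A/ApoE-/- cells. It is taken not to have worked, and the 5% of cells with the highest scores were left out as an alternative. Python 3.11.15, numpy 2.4.6, scipy 1.17.1 and pandas 2.3.3 did the counting.

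From each list of genes, the count past the limit, the median and examples from its highest and lowest ratios are named. The 7 genes and the lists were chosen with earlier results from these data known. The alternatives tried were other measures of the mean, thinned cells, stricter filters, cells with a reporter UMI, smooth muscle clusters, levels standardised over states, other resolutions, clusters made with the 7 genes, and other depth strata.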

Additional observations from a re-analysis of the deposited data

Results flagged for a closer look

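Cdkn1a moved in opposite directions between the genotypes inside plaque. Its log2 ratio was 1.08 in contractile-like cluster 0 and -0.75 in fibromyocyte-like cells. Cdkn1c did the same between these groups, at 0.38 in cluster 0 and -1.06 in fibromyocyte-like cells. A single ApoE-/- cell held 43.3% of the fibromyocyte-like Cdkn1c UMIs of its library, and the fall was smaller without the top cells. Cdkn2a was at 1.35 in chondrocyte-like cells and -0.55 in fibromyocyte-like cells. The chondrocyte-like value rests on 19 UMIs in ApoE-/- and 34 in Trf2T188A/ApoE-/-, with 41.2% of the latter in 1 cell. The fibromyocyte-like value did not hold by the mean over cells, as given above.

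In ligation, Cdkn1a was at 0.74 in endothelial-like cells and -0.33 in Gdf10 Ecrg4 cells. Cdkn1c was at 0.68 in interferon-responding cells and -0.25 in Gdf10 Ecrg4 cells. None of these differences between states was tested, and each rests on 1 library of each genotype.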

How the results depend on the processing

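Averaging over cells in place of summing UMIs gives each cell the same weight. By the mean over cells without a pseudocount, the genotype ratios of all plaque cells were 0.029 for Cdkn1a (-0.14 by summed UMIs), -0.14 for Cdkn1b (-0.02) and 0.51 for Cdkn2a (-0.04), so 1 gene was called higher where 0 had been. In contractile-like cluster 2 Cdkn1a was at 0.36 (-0.05). In fibromyocyte-like cells Cdkn1a was at -1.03 (-0.75) and Cdkn2a at -0.045 (-0.55), and in chondrocyte-like cells Cdkn1a was at -0.11 (-0.31). Cdkn2d reversed there, to 0.33 from -0.36. In ligation Cdkn1a was at -0.13 over all cells (-0.09) and -0.10 in Igfbp2 Postn cells (0.01), and 0 genes were called higher (1).

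The mean over cells was also taken with a pseudocount of 1 per 10000. This differs from summed UMIs in the averaging as well as in the pseudocount, so the moves are not put down to either alone. Over all plaque cells Cdkn1a was then at 0.017 and Cdkn1c at -0.14 (-0.33), with 0 genes lower (1). In cluster 0 Cdkn1a was at 0.31 (1.08), and in cluster 2 Cdkn1a was at 0.19 and Cdkn1c at -0.17 (-0.54). In fibromyocyte-like cells Cdkn1c was at -0.11, Cdkn2a at -0.0068 and Cdkn2b at -0.072 (-0.64). In chondrocyte-like cells Cdkn1a was at -0.089, Cdkn1c at -0.20 (-0.59) and Cdkn2a at 0.10 (1.35), and Cdkn2d reversed to 0.058. Over all ligation cells Cdkn1b was at -0.15 (-0.28), Cdkn2a at 0.019 (0.26), Cdkn2b at 0.046 (0.21) and Cdkn2c at -0.045 (-0.17), with 0 genes higher and 0 lower (1 and 1). Cdkn1b was at -0.16 in Sparcl1 Rbp4, -0.15 in Igfbp2 Postn and -0.17 in Gdf10 Ecrg4 cells. In Igfbp2 Postn cells Cdkn1a was at -0.072, Cdkn2a at 0.055 (0.46) and Cdkn2b at 0.15 (0.49). In Gdf10 Ecrg4 cells Cdkn1c was at -0.10 (-0.25), Cdkn2a at 0.071 (0.60) and Cdkn2b at 0.065 (0.30).

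Thinning removes UMIs, so by construction it lowers every share of cells with a UMI. In the order Cdkn1a, Cdkn1b, Cdkn1c, Cdkn2a, Cdkn2b, Cdkn2c and Cdkn2d, the thinned shares in ApoE-/- plaque were 34.5%, 43.1%, 25.7%, 1.21%, 9.22%, 10.1% and 20.9%. In Trf2T188A/ApoE-/- plaque they were 35.2%, 41.6%, 20.8%, 2.60%, 10.5%, 10.5% and 19.9%. In ligation control they were 60.3%, 44.8%, 27.1%, 3.40%, 11.7%, 12.5% and 14.5%. In ligation Trf2T188A they were 56.9%, 40.3%, 25.9%, 3.84%, 13.5%, 10.4% and 14.5%.

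Genotype ratios from thinned cells moved as well, and the cause was not tested. Over all plaque cells Cdkn1a was at 0.063, Cdkn2a at 0.38 and Cdkn2b at 0.20 (-0.15), with 1 gene higher (0). In cluster 3 Cdkn1b was at -0.040 (-0.39) and Cdkn2d reversed to -0.077 from 0.40. In fibromyocyte-like cells Cdkn1c was at -2.45 (-1.06) and Cdkn2b at -0.12 (-0.64), and in chondrocyte-like cells Cdkn1c was at -0.11 (-0.59) and Cdkn2b at 0.77 (-0.18). In ligation Cdkn1a was at -0.13 and Cdkn1b at -0.23 over all cells, with 0 genes higher (1), and in Igfbp2 Postn cells they were at -0.073 and -0.20. The fibromyocyte-like over contractile-like ratio of Cdkn1a in ApoE-/- was 2.22 (2.06). No thinned contractile-like cell of ApoE-/- had a Cdkn2a UMI. The Cdkn2a value of 5.53 (8.73) is therefore only a lower bound, over a floor count of 3. The Igfbp2 Postn over Sparcl1 Rbp4 ratio of Cdkn1a was 0.10 (0.02). The odds ratio of Cdkn2a with Cdkn2d in plaque reversed to 1.83 from 0.781.

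Weighting every state the same in both genotypes gave -0.20 for Cdkn1a and -0.19 for Cdkn1c in plaque, with 0 genes lower (1). In ligation it gave -0.16 for Cdkn1c (-0.09) and 0.50 for Cdkn2a (0.26), with 2 genes higher (1). The ligation gain of Cdkn2a was thus larger once states were weighted alike.

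Leaving out the 1 cell with the most UMIs of a gene, a choice made after seeing the data, reversed Cdkn1a in cluster 3, to -0.22 from 0.37. In fibromyocyte-like cells it gave -1.0 and in chondrocyte-like cells -0.43. Among cells with a reporter UMI, Cdkn1a was at -0.55 in fibromyocyte-like and -0.60 in chondrocyte-like cells. In the smooth muscle clusters of ligation it was at -0.13. The causes were not tested.

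Without cells of under 2000 genes, 0 genes were called higher in ligation (1). Cdkn1b was then in 71.0% of Trf2T188A/ApoE-/- plaque cells, 65.1% of ligation control cells and 66.8% of ligation Trf2T188A cells. In ligation control Cdkn1a was in 71.9% and Cdkn1c in 41.1%. Removing shallow cells raises shares by construction.

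State ratios depended on how states were drawn. At 0.5 of the resolution, fibromyocyte-like over contractile-like was 2.56 for Cdkn1a, -0.69 for Cdkn1b (-0.49), -0.59 for Cdkn1c (-1.80), 2.21 for Cdkn2c (2.62) and 0.055 for Cdkn2d (0.32). Igfbp2 Postn over Sparcl1 Rbp4 was -0.46 for Cdkn1a, 1.52 for Cdkn2a (5.22), 0.70 for Cdkn2b (0.94) and 0.72 for Cdkn2c (1.14), with 2 genes lower (1). At 1.5 times the resolution Cdkn1a in fibromyocyte-like cells was at 1.86, and with the 7 genes among the variable genes at 1.74. In each of these settings 2 genes were lower in Igfbp2 Postn cells (1).

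Comparing the lowest with the highest class of contractile genes in place of clusters gave, in plaque, 2.63 for Cdkn1a, -0.36 for Cdkn1c, 0.34 for Cdkn2b (0.98) and 1.92 for Cdkn2c. In ligation the contrast is of other cells than the state ratio, because Igfbp2 Postn cells have more contractile transcripts than Sparcl1 Rbp4 cells, so it does not test that ratio. It gave 1.15 for Cdkn1a (0.02), 0.24 for Cdkn1b (-0.06), 1.02 for Cdkn2a (5.22) and 0.13 for Cdkn2d (-0.24). The sign was also opposite for Cdkn1c, 0.22 (-1.14), Cdkn2b, -0.23 (0.94), and Cdkn2c, -0.33 (1.14).

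With library as the one stratum, 19 pairs were over 1 in plaque (10) and 17 in ligation (11). In plaque Cdkn1b with Cdkn2a reversed to 1.25 from 0.548, Cdkn1b with Cdkn2b to 1.38 from 0.802, and Cdkn2a with Cdkn2d to 1.23 from 0.781. In ligation Cdkn1a with Cdkn2a reversed to 1.18 from 0.813, and in the control library alone to 1.02. With clusters held fixed, Cdkn2a with Cdkn2c in plaque reversed to 0.983 from 2.07. The causes were not tested.

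Over all settings, 390 genotype ratios kept to their counting interval, 54 moved and 4 reversed. For state ratios these counts were 59, 22 and 3, and for odds ratios 199, 58 and 7. Of the shares 23 were kept and 33 moved, and of the counts of genes or pairs 43 were kept and 13 moved.

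No paired analysis was possible because each genotype is 1 library in each experiment. Differences between mice cannot be told apart from differences between genotypes. States were rebuilt from the deposited counts and are not the published ones. Transcript counts do not report protein, and p16INK4a cannot be separated from p19ARF.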
